A study of Mus musculus with 10 samples.

Results

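The Schlafen genes of the mouse encode a family of proteins that take their name from the German word for sleep, because Slfn1, the founding member, stops T cells from dividing when it is overexpressed. The members described here are the 7 genes Slfn1, Slfn2, Slfn3, Slfn4, Slfn5, Slfn8 and Slfn9, chosen by gene name. They carry 9 of the 55681 distinct probes that are not controls on the array, or 7 of its 36315 gene names, with 2 probes each for Slfn8 and Slfn9. RNA came from RAW264.7 cells, a tumour-derived mouse line with macrophage traits, and was measured on 10 single-colour arrays. Of the 5 groups of 2 arrays, 4 received a glucocorticoid at 100 nM. These are Dex, which is dexamethasone, FF, which is fluticasone furoate, and the coded compounds VSG22 and VSGC12. The glucocorticoid preceded 1 µg/ml of LPS (lipopolysaccharide, a bacterial wall component that activates macrophages) by 1 h, and RNA was taken at 16 h. The remaining group is labelled as EtoH treatment, with no glucocorticoid named, and serves as the control. Whether EtoH cells also received LPS is not given in the labels, and this limit applies to every comparison with them. A single cell line was used, and nothing says that replicates were separate cultures, so p-values measure the spread between arrays, which may be technical.

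As background, Schlafen proteins are grouped by length. Slfn1 and Slfn2 are short forms, Slfn3 and Slfn4 are of intermediate length, and Slfn5, Slfn8 and Slfn9 are long forms with an additional helicase-like region. Several members are induced in macrophages by type I interferon and by LPS, and Slfn2 is needed for T cells and monocytes to remain quiescent. Glucocorticoids act through a nuclear receptor that raises some genes and represses many inflammatory ones.

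All 9 probes lie on chromosome 11 within 253.584 kb (mm9, 82774907 to 83028490), in the order Slfn5, Slfn9, Slfn8, Slfn2, Slfn1, Slfn4, Slfn3. No mm9 annotation was used, so the probes are not assigned to exons or introns. Family members resemble one another, so the probe sequences bear on which transcript a signal can be read as. The 2 probes below share the longest run of bases between 2 genes of the family, 19 bases, shown in capitals. Over their best ungapped overlap 36 of 48 positions match, or 75%. Most matches outside the run lie just before it in both probes, so the likeness extends beyond the capitals. Between all other probe pairs the longest shared run was 9 bases. Probes were set against each other only, not against transcripts. Signal from another member's transcript was therefore not tested for any of the 9 probes.
Slfn8, probe A_55_P2117656: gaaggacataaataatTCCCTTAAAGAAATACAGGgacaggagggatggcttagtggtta
Slfn9, probe A_55_P2117649: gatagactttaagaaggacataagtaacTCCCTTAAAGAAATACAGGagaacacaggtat

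The other probes of both genes share no such run with a probe of another member and serve below as a second reading of each gene. Whether they match another member's transcript was not tested. The probe of Slfn1 is shown because that gene differed most from EtoH. No bases are marked in these 3 probes.
Slfn8, probe A_66_P105585: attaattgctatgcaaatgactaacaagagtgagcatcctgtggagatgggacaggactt
Slfn9, probe A_55_P2110537: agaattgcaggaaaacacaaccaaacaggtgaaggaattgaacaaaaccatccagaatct
Slfn1, probe A_52_P425890: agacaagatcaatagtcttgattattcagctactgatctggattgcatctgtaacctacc

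The stretch before the gene start also separates the family. The core of the interferon-stimulated response element, taken as GAAA, any 2 bases and GAAA on either strand, was found in the start windows of 3 of the 7 members, Slfn5, Slfn8 and Slfn9. The windows run from 250 bases before to 50 after a start (RefSeq, GRCm38.p6), and 3.45% of 32544 such windows hold the core. Searched on both strands, the STAT site TTCNNNGAA, the kappa B site (GGG, any 2 bases, TTTCC) and the glucocorticoid receptor palindrome core ACANNNTGT were in the windows of 0 of the 7 members. They occurred in 8.33%, 1.61% and 6.83% of all windows. The stretches with a match follow, 5′ to 3′ on the gene's strand, with the core in capitals. Slfn5 (plus strand) is shown from -195 to -106 relative to its start, and Slfn8 and Slfn9 (minus strand) from -88 and -85 to -1. Slfn8 has 2 start windows, and both hold the core. It lies from -48 to -39 in the window shown and from -136 to -127 in the other. The Slfn8 and Slfn9 stretches are much alike, with a longest shared run of 20 bases and the same core. Their matches therefore cannot be counted as separate ones against the share of all windows. A match is a description of letters, not a bound site.
Slfn5, chr11:82951907-82951996: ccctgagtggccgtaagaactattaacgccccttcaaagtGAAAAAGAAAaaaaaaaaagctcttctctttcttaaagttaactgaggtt
Slfn8, chr11:83020811-83020898: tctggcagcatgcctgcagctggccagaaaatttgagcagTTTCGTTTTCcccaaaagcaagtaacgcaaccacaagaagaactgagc
Slfn9, chr11:82991831-82991915: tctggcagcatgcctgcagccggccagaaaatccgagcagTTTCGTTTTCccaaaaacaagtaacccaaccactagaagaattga

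Among all spots that are not controls, 40.1% to 44.4% were well above background on an array and 0 were saturated, and the number of arrays limits the precision. All 8 macrophage markers on the fixed list were well above background on all 10 arrays, with summed levels of 508 to 557 in the glucocorticoid groups and 423 to 428 in EtoH, in multiples of each array's 75th percentile of signal. Of these markers 3 were higher and 2 lower in the glucocorticoid groups. All 3 B cell and all 3 epithelial markers were below background on every array. Of 4 T cell markers, Cd3e and Cd4 were above background on all 10 arrays, Cd3g on 1 and Cd8a on 0, and their summed level was 31.4 to 90.1 in the glucocorticoid groups and 21.2 to 21.8 in EtoH. Of these T cell markers 1 was higher and 0 lower in the glucocorticoid groups, where 19.8% of all genes were higher and 23.8% lower. Of 4 fibroblast markers 1 (Lum) was above background on all 10 arrays, and of 2 neutrophil markers on the array 1 (S100a8). Their summed levels were 0.302 to 0.528 and 20.1 to 30.7 in the glucocorticoid groups, and 0.303 to 0.373 and 21.4 to 26.3 in EtoH. The labels name a single cell line, so these markers are read as probe signal in that line, not as counts of other cell types. Their relation to the Schlafen values was not tested, and fewer cells and less RNA per cell cannot be told apart. The Dex arrays stood apart: the log2 difference between the 2 replicates had an SD of 0.61 across genes in Dex and of 0.31 to 0.38 in the other groups. Fkbp5, a known receptor target that encodes a co-chaperone, was higher than EtoH by 1.64 (Dex) to 2.30 (VSGC12) on the log2 scale, and the receptor gene Nr3c1 was at -0.17 ± 0.07 for the mean of the 4 (adjusted p = 0.0949). Tsc22d3, which encodes the glucocorticoid-induced leucine zipper, was at 0.11 ± 0.07 (adjusted p = 0.262).

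Values below are processed signals divided by the array's own 75th percentile, replicate 1 before replicate 2, and replicate 1 arrays share 1 slide and replicate 2 arrays the other. Levels of different probes cannot be set against each other. Differences are log2 values of a glucocorticoid minus EtoH with their SE from limma, adjusted over all genes, and a call is an adjusted p under 0.05. All 7 members passed the filter on dim probes, and every probe but that of Slfn1 was well above background on all 10 arrays.

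Slfn1 and Slfn8 were lower with the glucocorticoids than with EtoH, and no Schlafen gene was called higher. For the mean of the 4 glucocorticoids 2 of 7 members were called lower and 0 higher, where 23.8% of all 18031 genes tested were lower and 19.8% higher, so under this scaling 2 of 7 lower was near the background. The split over all genes depends on the scaling: with array medians subtracted 2639 genes were higher and 1113 lower, against 3576 higher and 4297 lower here, and 1 member, Slfn1, was called lower. With the replicate block the Slfn1 call was lost (adjusted p = 0.0526) and Slfn8 was the 1 member called. The median of the 7 members was -0.38 and that of all genes -0.03. In FF, 2 of 7 were lower (20.0% of all genes lower, 16.8% higher), and in VSGC12 1 of 7 (18.6% lower, 16.2% higher). In Dex 0 of 7 were called (18.1% lower, 14.6% higher), with 1 at an unadjusted p under 0.05, as for 8248 of 18051 genes. In VSG22 0 of 7 were called as well (15.0% lower, 15.2% higher), with 1 at an unadjusted p under 0.05, as for 7379 of 18054 genes. The 4 comparisons share the 2 EtoH arrays. All 8 glucocorticoid arrays lay below both EtoH arrays for 3 members, Slfn1, Slfn4 and Slfn8 (26.5% of genes did), and above both for 0 members (21.0% of genes did).

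**Figure D1:**
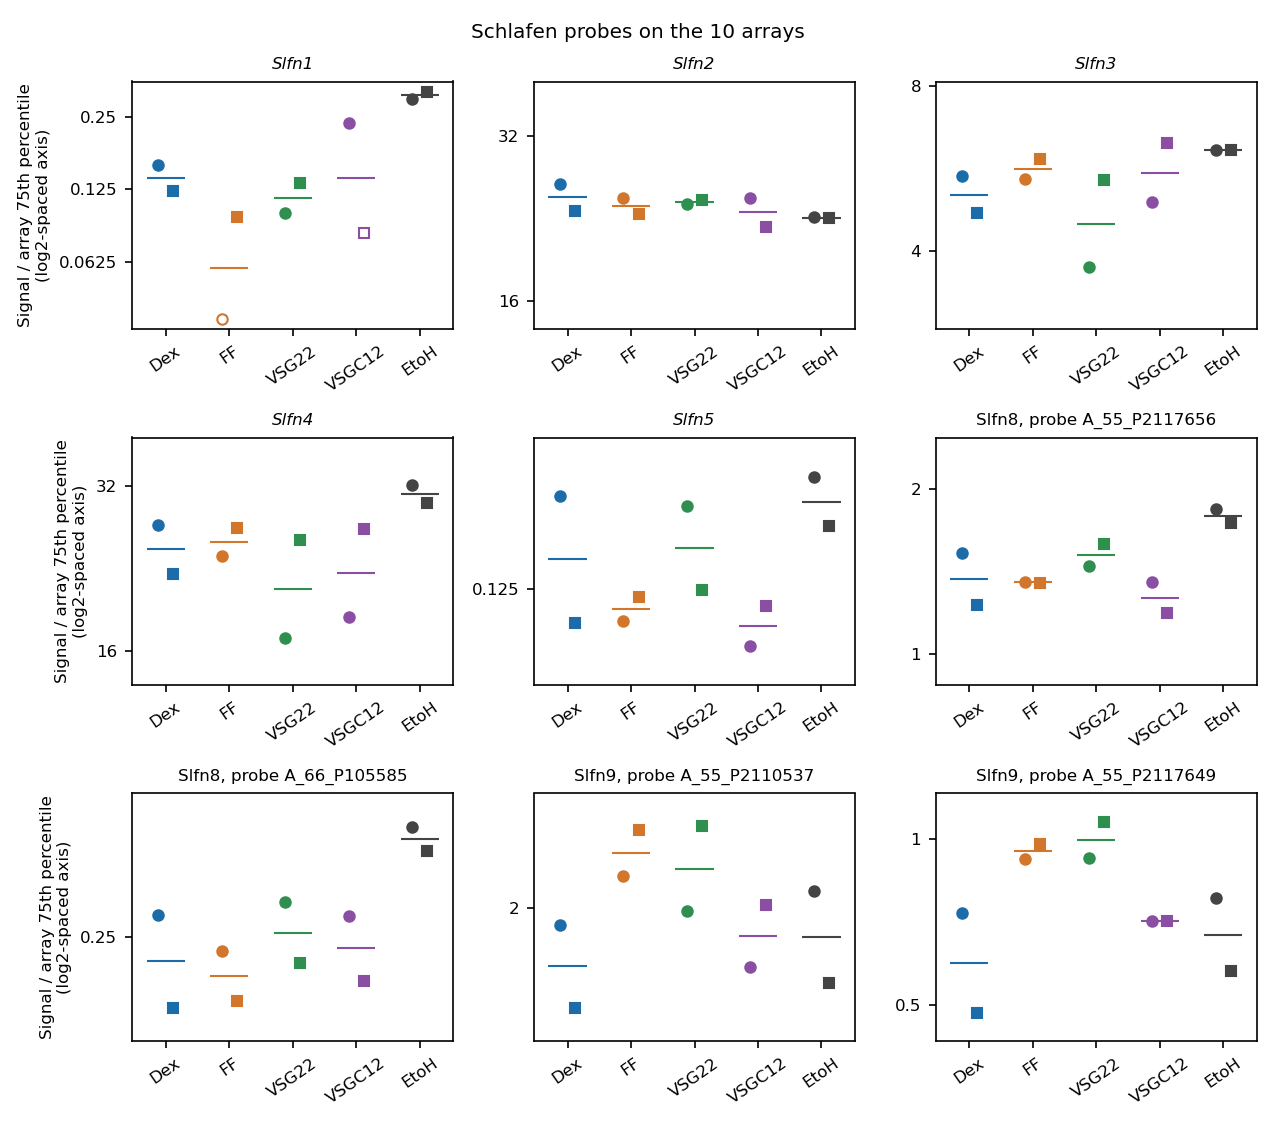
Signal of the 9 Schlafen probes as a multiple of each array's 75th percentile (log2-spaced vertical axis, scaled to each probe), by group on the horizontal axis. Circles are replicate 1 arrays, squares replicate 2 arrays, bars the geometric mean of the 2, and open symbols spots that were not well above background. For Slfn1, Slfn4 and both Slfn8 probes all 8 glucocorticoid arrays lie below both EtoH arrays.

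Of the short forms, Slfn1 was lower and Slfn2 was not called in any comparison. The signal of Slfn1 (NM_011407, 82935656 to 82935715, plus strand) was 0.158 and 0.123 in Dex, 0.0364 and 0.0962 in FF, 0.0999 and 0.132 in VSG22 and 0.236 and 0.0823 in VSGC12, against 0.296 and 0.317 in EtoH. Every glucocorticoid array was below both EtoH arrays, with FF replicate 1 the lowest and VSGC12 replicate 1 the closest to EtoH. The mean of the 4 was 2.86-fold lower (-1.52 ± 0.46, adjusted p = 0.0347). Within the slides the difference was -1.46 and -1.58. FF was called lower (-2.37 ± 0.58, adjusted p = 0.0196), but 1 of its 2 arrays, replicate 1, was not well above background, so the size of that difference is uncertain. The same holds for replicate 2 of VSGC12. Dex, VSG22 and VSGC12 were at -1.14 ± 0.58, -1.41 ± 0.58 and -1.14 ± 0.58 (adjusted p = 0.17, 0.115 and 0.174). The VSGC12 value was -1.90 without its replicate 1 and -0.38 without its replicate 2, and neither was called. The spots are dim: the mean signal of the spot was 67.0 on FF replicate 1 and 138 on EtoH replicate 1, over local backgrounds of 30.0 and 38.5.

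The size of the Slfn1 difference rests on how background is removed, since normexp gave -0.67 for the mean of the 4 and -0.88 for FF, both called (adjusted p = 0.0136 and 0.0148). Dex, too, was called with normexp (-0.70, adjusted p = 0.0351; 0.0351 to 0.4 over the alternatives). For the mean of the 4 the call was lost with the replicate block (adjusted p = 0.0526; 0.0136 to 0.161 over the alternatives), with no filter (-1.52), without EtoH replicate 1 (-1.57) or replicate 2 (-1.47), without VSG22 replicate 1 (-1.47) or replicate 2 (-1.57), and without Dex replicate 2 (-1.47); that of FF was lost with no filter (-2.37), without EtoH replicate 1 (-2.42) or replicate 2 (-2.32) and without FF replicate 1 (-1.67).

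Slfn2 (NM_011408, 82883791 to 82883850, plus strand) gave 26.2 and 23.4 in Dex, 24.7 and 23.1 in FF, 24.04 and 24.5 in VSG22 and 24.7 and 21.8 in VSGC12, against 22.7 and 22.6 in EtoH. Of the 8 glucocorticoid arrays 7 lay above both EtoH arrays and 1, VSGC12 replicate 2, below both. The difference for the mean of the 4 was 0.08 ± 0.08 (95% interval -0.10 to 0.26, adjusted p = 0.408). Under this scaling that interval runs from a ratio of 0.934 to a 1.20-fold increase. Over the alternatives the difference itself ran from 0.03 to 0.23.

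The intermediate members Slfn3 and Slfn4 leaned downward without a call. The signal of Slfn4 (NM_011410, 83002974 to 83003033, plus strand), a gene of myeloid cells that LPS and interferon induce, was 27.2 and 22.2 in Dex, 23.8 and 26.9 in FF, 16.9 and 25.5 in VSG22 and 18.5 and 26.7 in VSGC12, against 32.2 and 29.9 in EtoH. All 8 glucocorticoid arrays were below both EtoH arrays, and replicate 1 of VSG22 and of VSGC12 were the lowest. The difference for the mean of the 4 was -0.42 ± 0.19 (adjusted p = 0.117), and it was -0.60 within the first slide and -0.24 within the second.

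For Slfn3 (NM_011409, 83028431 to 83028490, plus strand) the arrays read 5.47 and 4.69 in Dex, 5.40 and 5.88 in FF, 3.73 and 5.38 in VSG22 and 4.91 and 6.28 in VSGC12, against 6.10 and 6.11 in EtoH. Here 7 of 8 glucocorticoid arrays were below both EtoH arrays and VSGC12 replicate 2 was above them. The mean of the 4 was at -0.24 ± 0.16 (adjusted p = 0.243), and at -0.34 and -0.15 within the slides. VSG22 was at -0.45 ± 0.20 (adjusted p = 0.137) and was called without VSG22 replicate 2 (-0.71).

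The 10-array profiles of these neighbours resembled each other. Centred on their own means, Slfn3 and Slfn4 differed by a root mean square of 0.13 log2, the smallest among the 21 pairs of members, whose largest was 1.09 (Slfn1 and Slfn9). Among 12256 genes with a symbol that were above background on all arrays, Slfn4 was the closest to Slfn3, and Slfn3 was the second closest to Slfn4 after Carmil2 (0.13). The shared arrays include the low VSG22 and VSGC12 arrays of the first slide, and the longest run of bases shared by the 2 probes is 7. Whether either probe takes signal from the other gene's transcript was not tested.

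Among the long forms Slfn8 was lower, Slfn5 leaned lower and Slfn9 was called in no comparison. The brighter Slfn8 probe (NM_181545, 82815804 to 82815863, minus strand) gave 1.53 and 1.23 in Dex, 1.35 and 1.35 in FF, 1.44 and 1.59 in VSG22 and 1.35 and 1.19 in VSGC12, against 1.83 and 1.73 in EtoH. All 8 glucocorticoid arrays were below both EtoH arrays. The mean of the 4 was 1.30-fold lower (-0.38 ± 0.10, adjusted p = 0.0224), with -0.37 and -0.38 within the slides. VSGC12 was at -0.49 ± 0.13 (adjusted p = 0.0249) and FF at -0.40 ± 0.13 (adjusted p = 0.047), while Dex was at -0.38 ± 0.13 (adjusted p = 0.0597) and VSG22 at -0.23 ± 0.13 (adjusted p = 0.218).

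The second Slfn8 probe (NM_001167743, 82830985 to 82831044, minus strand) shares no long run with the Slfn9 probes. It read 0.274 and 0.186 in Dex, 0.236 and 0.191 in FF, 0.289 and 0.224 in VSG22 and 0.273 and 0.208 in VSGC12, against 0.397 and 0.359 in EtoH. All 8 glucocorticoid arrays were below both EtoH arrays on this probe too. In the fit with 1 row a probe its mean of the 4 was at -0.70 ± 0.19 (adjusted p = 0.0232, where 42.5% of probes were called) and FF at -0.83 ± 0.24 (adjusted p = 0.0349, where 35.5% were). Within the slides the mean was -0.57 and -0.83. Dex was at -0.74 ± 0.24 (adjusted p = 0.054), VSGC12 at -0.66 ± 0.24 (adjusted p = 0.0726) and VSG22 at -0.57 ± 0.24 (adjusted p = 0.123). The VSGC12 call of the brighter probe was therefore not repeated on this one.

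The Slfn8 call for the mean of the 4 was lost with array medians subtracted (-0.23), where the median of all genes moved by 0.15 to 0.12, and with normexp (-0.20), no filter (-0.38), or without EtoH replicate 1 (-0.33) or replicate 2 (-0.42). The same settings ended the calls of FF (-0.44 to -0.25) and VSGC12 (-0.53 to -0.30), that of FF also without either VSG22 or either VSGC12 array (-0.40) or without FF replicate 1 or replicate 2 (-0.40), and that of VSGC12 without VSGC12 replicate 2 (-0.40), while Dex was called without Dex replicate 1 (-0.54).

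Slfn5 (NM_183201, 82774907 to 82774966, plus strand) had 0.184 and 0.108 in Dex, 0.109 and 0.121 in FF, 0.177 and 0.124 in VSG22 and 0.0983 and 0.116 in VSGC12, against 0.200 and 0.162 in EtoH. Both arrays of FF and VSGC12 and the second arrays of Dex and VSG22 were below both EtoH arrays, while the first arrays of Dex and VSG22 lay between them. VSGC12 was at -0.75 ± 0.28 (adjusted p = 0.079), FF at -0.65 ± 0.28 (adjusted p = 0.112) and the mean of the 4 at -0.51 ± 0.22 (adjusted p = 0.105). These spots are dim as well. Their mean signal was 88.1 on VSGC12 replicate 1 and 127 on EtoH replicate 2, over local backgrounds of 24 and 26. Over the alternatives the differences were as small as -0.26 (VSGC12), -0.22 (FF) and -0.26 (mean of the 4), so their size is uncertain. Without the Dex arrays, whose Slfn5 values differ most between replicates, the mean of the other 3 was at -0.56 (adjusted p = 0.0334; 0.024 to 0.429 over the alternatives). Leaving out Dex replicate 1 also gave a call for the mean (-0.60), and leaving out either Dex array gave calls for VSGC12 (-0.75) and FF (-0.65).

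Slfn9 gave no common direction. Its representing probe (NM_172796, 82793812 to 82793871, minus strand) read 1.86 and 1.31 in Dex, 2.29 and 2.78 in FF, 1.97 and 2.81 in VSG22 and 1.56 and 2.03 in VSGC12, against 2.15 and 1.46 in EtoH. Both FF arrays and VSG22 replicate 2 were above both EtoH arrays, Dex replicate 2 was below both, and the other 4 lay between. FF was at 0.51 ± 0.29 (adjusted p = 0.199), VSG22 at 0.41 ± 0.29 (adjusted p = 0.327), VSGC12 at 0.01 ± 0.29 (adjusted p = 0.987) and Dex at -0.18 ± 0.29 (adjusted p = 0.652). The mean of the 4 was 0.19 ± 0.23 (adjusted p = 0.525) and changed sign between the slides, -0.18 in the first and 0.55 in the second.

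The other Slfn9 probe (82793914 to 82793973), which shares the 19-base run with Slfn8, read 0.736 and 0.483 in Dex, 0.923 and 0.980 in FF, 0.924 and 1.08 in VSG22 and 0.710 and 0.711 in VSGC12, against 0.781 and 0.576 in EtoH. Both arrays of FF and of VSG22 were above both EtoH arrays, so this probe orders the groups like the first except that VSG22 is the highest. VSG22 was at 0.57 ± 0.22 (adjusted p = 0.1) and FF at 0.50 ± 0.22 (adjusted p = 0.12). On Dex replicate 2, its lowest array, 4 of its 24 neighbouring spots exceeded background in Dex alone, against 0 or 1 for every other member spot, and their part in the value was not tested.

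**Figure D2:**
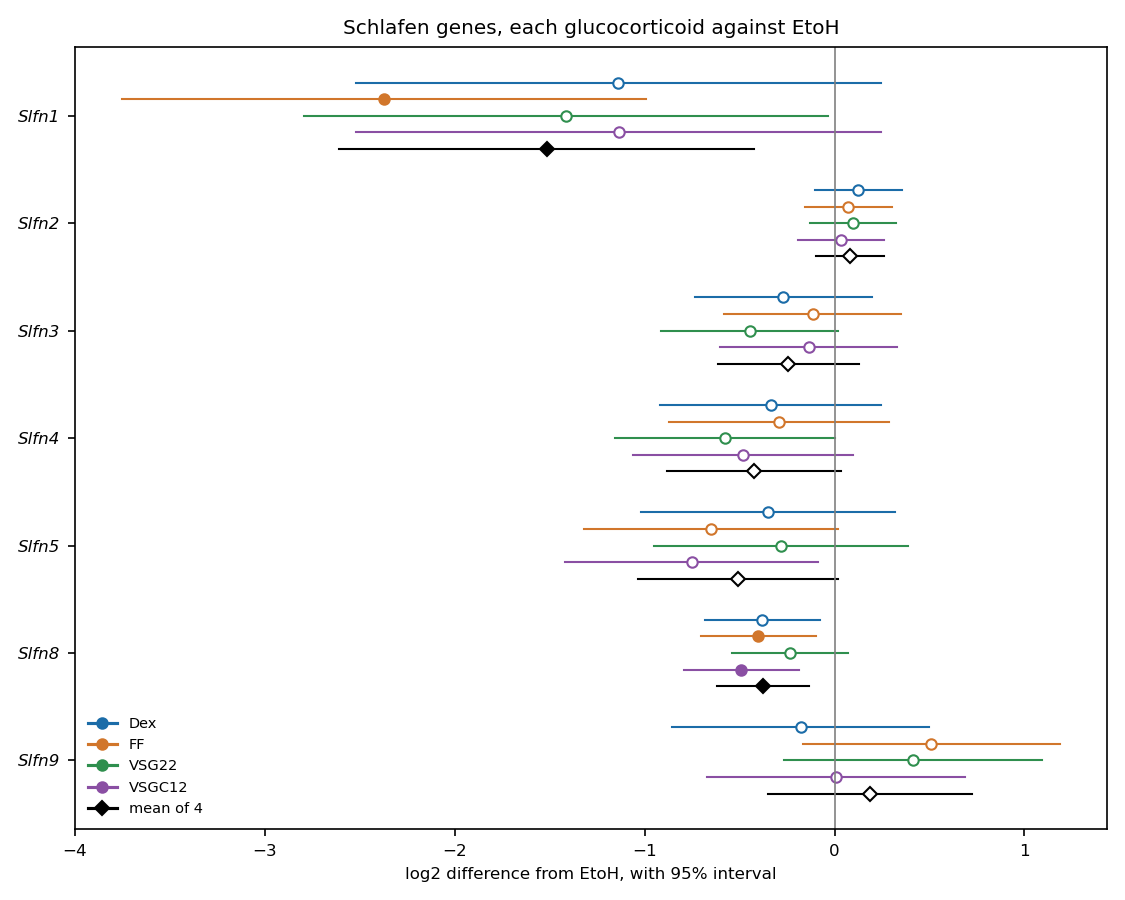
Log2 difference from EtoH of the 7 Schlafen genes (horizontal axis) for Dex, FF, VSG22, VSGC12 and their mean, with 95% intervals from the fit. Filled symbols are called (adjusted p under 0.05): Slfn1 in FF and in the mean, and Slfn8 in FF, VSGC12 and the mean.

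In the order of group means EtoH was the highest for Slfn1, Slfn3, Slfn4, Slfn5 and Slfn8, the lowest for Slfn2, and next to the lowest, above Dex, for Slfn9. FF was the lowest glucocorticoid for Slfn1 and the highest for Slfn9 and for Slfn3 and Slfn4. VSG22 was the lowest for Slfn3 and Slfn4 and the highest for Slfn5 and Slfn8, and VSGC12 the lowest for Slfn2, Slfn5 and Slfn8. These orders are of the probes that represent the genes. On the second Slfn8 probe FF was the lowest glucocorticoid and VSG22 again the highest, and on the other Slfn9 probe VSG22 was the highest. No 2 neighbours in any of the 7 orders differed at an adjusted p under 0.05.

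The 4 glucocorticoids were given at the same dose and time, so their Schlafen levels are compared at matched concentration, not at matched receptor activity. Each group also held the same array position on both slides, with Dex in row 2 and every other group in row 1. Compound and position therefore cannot be told apart. VSG22 and VSGC12 are known here by code only, and no structural difference is named. In 42 comparisons, 6 pairs for each of 7 genes, 0 were called over all genes and 0 when adjusted over the 6 pairs of a gene, and 1 had an unadjusted p under 0.05. Calls were rare over all genes as well: 0.327% of genes in FF against Dex, 0.532% in VSG22 against Dex, 0.393% in VSGC12 against Dex, 0% in VSG22 against FF, 0.00555% in VSGC12 against FF and 0% in VSGC12 against VSG22. The F-test among the 4 called 0 of 7 members (0.238% of genes), with 0 at an unadjusted p under 0.05. All these counts are of the probes that represent the genes.

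The intervals show what these arrays could have missed. For 29 of the 42 comparisons the 95% interval excludes a 2-fold difference in either direction. Slfn2 was the most tightly bounded, with all 6 intervals between -0.32 and 0.25. For Slfn8 they lay between -0.56 and 0.47, with the largest difference in VSGC12 against VSG22 (-0.26 ± 0.13, interval -0.56 to 0.05). Slfn3 and Slfn4 intervals stayed within -0.80 to 0.78 and -0.86 to 0.68, both with the largest difference in VSG22 against FF (-0.33 and -0.28). Slfn5 was at -0.47 in VSGC12 against VSG22 (interval -1.14 to 0.20). Slfn1 was the least bounded, with 1.23 in VSGC12 against FF (interval -0.15 to 2.62). FF replicate 1 and VSGC12 replicate 2 were not well above background there, and the difference was 0.48 without VSGC12 replicate 1, 1.99 without VSGC12 replicate 2, 0.53 without FF replicate 1, 1.94 without FF replicate 2 and 0.43 with normexp, with no call in any of these.

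The pair with an unadjusted p under 0.05 was Slfn9 in FF against Dex, where FF was 1.61-fold the Dex level (0.69 ± 0.29, interval 0.01 to 1.37). Its adjusted p was 0.355 over all genes and 0.234 over the 6 pairs. The other Slfn9 probe gave 0.67 ± 0.22 for FF against Dex and 0.74 ± 0.22 for VSG22 against Dex (adjusted p = 0.307 and 0.201 over all probes), and on either probe both FF arrays were above both Dex arrays.

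**Figure D3:**
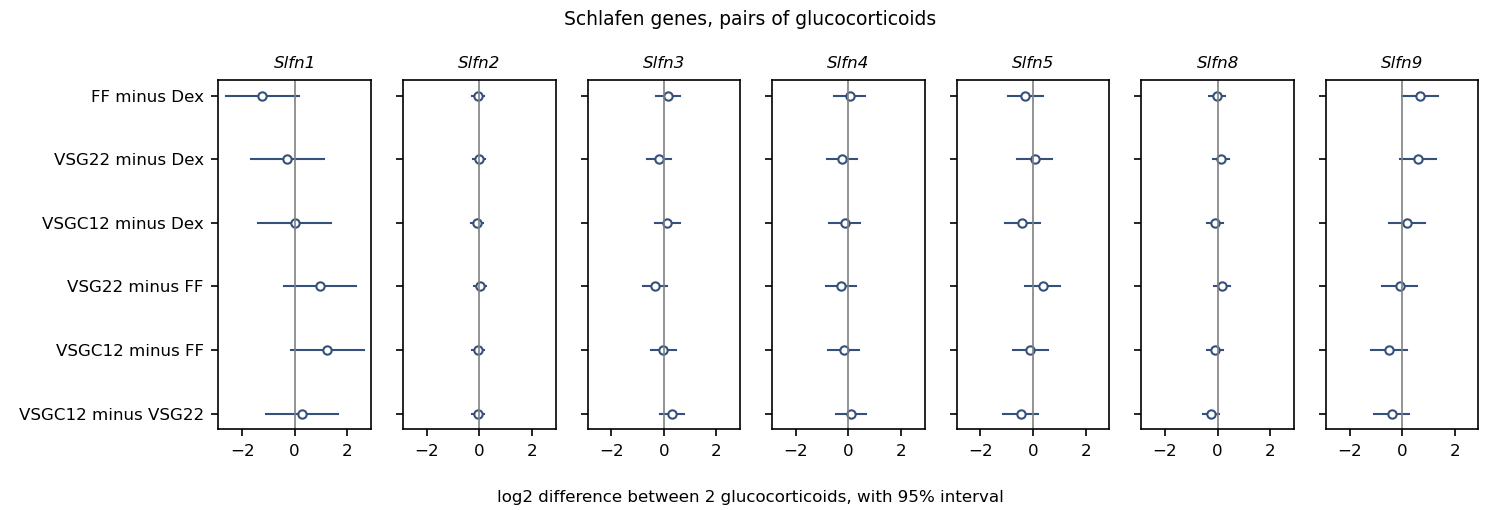
Log2 difference between 2 glucocorticoids (horizontal axis, with 95% interval) for each of 6 pairs and 7 Schlafen genes. Slfn2 and Slfn8 have narrow intervals around 0, Slfn1 wide ones, and Slfn9 in FF minus Dex has the only interval that excludes 0.

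Interferon-induced genes, the class to which several Schlafen genes belong, were measured beside them. Of 36 such genes listed, 24 were lower for the mean of the 4 glucocorticoids, 0 were higher and 12 were not called, with a median of -0.47 and a range of -3.96 to 0.19, beside 23.8% of all genes lower and 19.8% higher. The 7 Schlafen genes had 2 lower and a median of -0.38. By compound the list had 20 lower and 2 higher in Dex, 21 lower in FF, 21 in VSG22 and 23 in VSGC12, with 0 higher in the last 3. Of all genes 18.1% were lower in Dex, 20.0% in FF, 15.0% in VSG22 and 18.6% in VSGC12. No test of the Schlafen genes against this list was made.

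At the top of that pathway Ifnb1, which encodes interferon beta, was not well above background on any glucocorticoid array. It passed the filter on dim probes through EtoH alone. Ifnb1 was at least 3.27-fold lower for the mean of the 4 than in EtoH, a bound that carries no p-value. By compound it was at least 3.69-fold lower in FF, 3.33-fold in VSG22 and 3.09-fold in Dex, with the smallest of the 4 bounds in VSGC12. Of the 11 upstream genes tested 4, Ifnb1 among them, were lower and 0 higher, where 23.8% of all genes were lower and 19.8% higher. Stat2 and Irf9, transcription factors of interferon signalling, were at -0.76 ± 0.13 (adjusted p = 0.00352) and -0.10 ± 0.06 (adjusted p = 0.2). The interferon-induced regulator Irf7 was at -0.64 ± 0.08 (adjusted p = 0.00125).

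Effector genes of the class covered a wide span. Mx1, an antiviral GTPase, was at -3.96 ± 0.10 (adjusted p = 2.72e-06) and Ifit1, which binds foreign RNA, at -1.72 ± 0.12 (adjusted p = 7.48e-05). Oasl1, which limits Irf7 translation, was at -0.48 ± 0.08 (adjusted p = 0.00325), and the ubiquitin-like Isg15 at -0.45 ± 0.10 (adjusted p = 0.0113). The differences of Slfn4, Slfn5 and Slfn8 (-0.42, -0.51 and -0.38, only the last called) are of the size seen for Oasl1 and Isg15, while Slfn2 (0.08) and Slfn9 (0.19) lie at the top of the list's range. The median absolute difference over all genes was 0.32, so values near this size are not particular to the class.

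**Figure D4:**
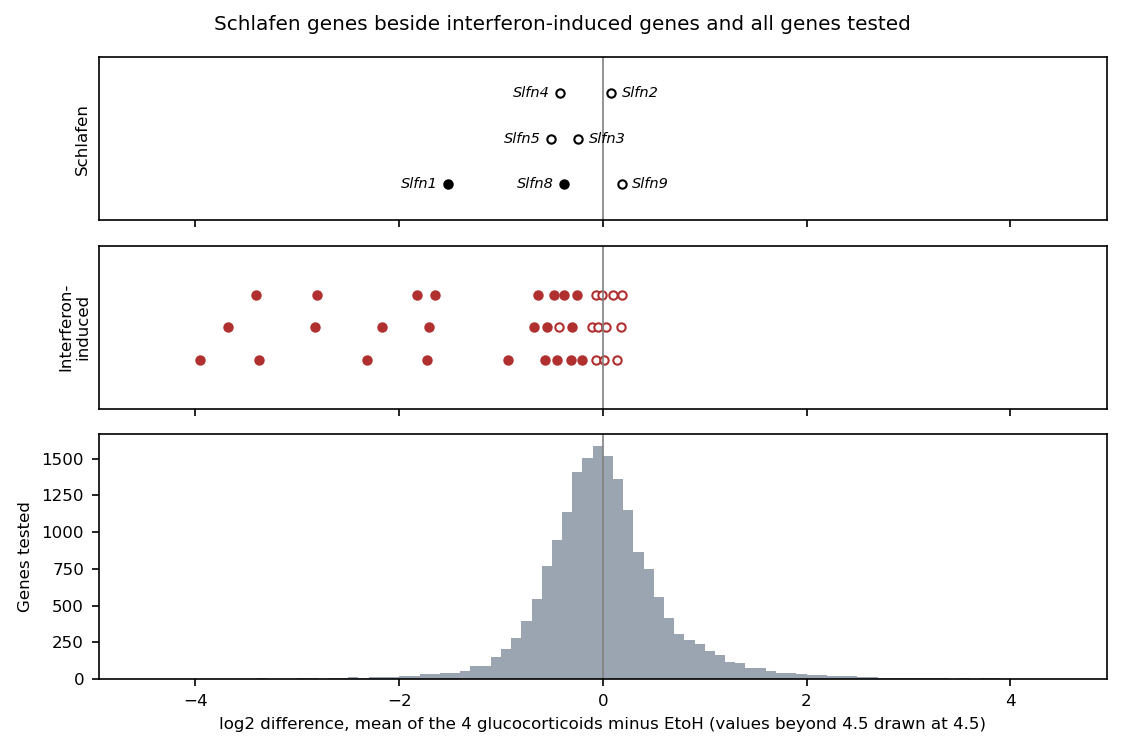
Log2 difference of the mean of the 4 glucocorticoids from EtoH (horizontal axis, shared) for the 7 Schlafen genes (top), 36 interferon-induced genes (middle) and all genes tested (bottom, number of genes per bin of 0.1). Filled points are called (adjusted p under 0.05) and vertical position within the upper panels has no meaning. The Schlafen genes run from -1.52 to 0.19 and the interferon-induced genes from -3.96 to 0.19.

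The genes closest in profile over the 10 arrays differed between members. These profiles include the EtoH arrays. A gene close to a member therefore shares much of its difference from EtoH by choice, and the directions below are description only. Closest to Slfn8 were Sugp1, Slf2 and Rab11fip3 (root mean square difference of 0.04 to 0.05 log2), each of which was lower for the mean of the 4. Closest to Slfn5 were Tmem184a, the interferon-inducible GTPase gene Gbp7 and Htra3 (0.13 to 0.15), of which the first 2 were lower. Slfn1 was followed least closely, by the DNA repair nuclease gene Dclre1a, the beta-glucan receptor gene Clec7a and Rbpms2 (0.36 to 0.53), all lower (-1.63, -1.73 and -1.35). Fyb, Zcchc17 and Scamp3 were closest to Slfn2 (0.03 to 0.04), and Gm6252, Ermn and Dcc to Slfn9 (0.12 to 0.13), with 0 of these 6 called. Slfn3 was followed after Slfn4 by Gm5258 and Zfp354a, and Slfn4 by Carmil2, Slfn3 and Ankrd16 (0.13 to 0.14). A member with little variation over the arrays, such as Slfn2, has small differences from many genes.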

How the data were processed

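Each of the 10 deposited files holds 1 array's output of Agilent Feature Extraction 10.7.3.1, per the file headers, as intensity: spot mean, local background and a background-subtracted processed signal, not scaled between arrays. Other columns are the software's flags for background, saturation and irregular spots, per the file headers. The submitters' processing notes list limma without a step. Flagged irregular spots were dropped, log2 processed signals averaged per probe, and each array's 75th percentile over spots that are not controls (375.1 to 536.8) subtracted. A probe was kept if 1 or more groups had it well above background on both arrays, and the brightest kept probe represented a gene. All 10 arrays were fitted with limma 3.58.1 (R 4.3.3; lmFit, eBayes, group only, 5 residual and 1.85 prior degrees of freedom), two-sided, with Benjamini-Hochberg adjustment over genes and 95% intervals. A second fit held 1 row a probe. A gene with no array of a group above background has a bound against the dimmest signal counted as above it there. On simulated data for the mean of the 4 glucocorticoids against EtoH with 200 of 17890 genes changed 2-fold, 144 were called, all with the right sign, and 9 unchanged genes were called. The simulation gave every group the same spread. In the data 7873 of 18031 genes were called and Dex replicates differed more, so these rates do not carry over to the calls reported here. Probe positions are those in the files (mm9), and promoters come from RefSeq (GRCm38.p6), where all 7 members matched. The named genes are the members, regulators and interferon genes fixed by list, and for each member the 3 genes of most similar profile. Members, lists and tests were chosen with earlier results of these data known. Deviations from group means correlated between same-numbered arrays at r = -0.04 to 0.32 (across genes, not independent replicates). The highest were Dex with VSGC12 (0.32), FF with VSGC12 (0.29) and Dex with FF (0.27). Replicate numbers follow the slides and the scan dates. The main fit did not take them as pairs, and the replicate block was run as an alternative. Alternatives changed scaling, background, filter, probe choice, spots, block and arrays.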

Additional observations from a re-analysis of the deposited data

How the results depend on the processing

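Over the alternatives 808 single-gene values kept direction and side of the threshold, 33 lost a call, 14 gained one and 18 reversed. The number of Schlafen genes called moved as follows, with main values of 0 (Dex), 2 (FF), 0 (VSG22), 1 (VSGC12) and 2 (mean of the 4). With array medians subtracted it was 1 for FF, 0 for VSGC12 and 1 for the mean, and with normexp 1 for Dex, 1 for FF, 0 for VSGC12 and 1 for the mean. With no filter it was 0 for FF, VSGC12 and the mean. For Dex it was 1 with quantile normalization, a percentile over detected probes or the mean of a gene's probes, and without both Dex arrays it was 3 for FF, 2 for VSGC12 and 3 for the mean. Leaving out 1 array gave 0 to 1 for Dex, 0 to 3 for FF, 0 to 1 for VSG22, 0 to 2 for VSGC12 and 0 to 3 for the mean. With the replicate block it was 1 for the mean, Slfn8 alone, and no other Schlafen call changed. Reversed values were all of uncalled genes. Slfn2 was -0.032 in FF with normexp, and in VSGC12 -0.022 with quantile normalization, -0.029 with the detected percentile and -0.0901 with normexp. Slfn3 was 0.011 in FF and 0.0502 in VSGC12 with array medians subtracted. Slfn9 in VSGC12 was -0.014 with quantile normalization, -0.056 with the detected percentile and -0.063 with normexp. Leaving out 1 array took Slfn2 in VSGC12 from -0.054 (without VSGC12 replicate 1) to 0.122, Slfn3 in VSGC12 from -0.316 to 0.041 (without VSGC12 replicate 1), Slfn4 in VSG22 against FF from -0.58 to 0.012 (without VSG22 replicate 1) and Slfn5 in Dex from -0.735 to 0.036 (without Dex replicate 2). It took Slfn9 from -0.092 (without EtoH replicate 2) to 0.468 for the mean, from -0.459 to 0.102 in Dex (without EtoH replicate 1; 0.075 without Dex replicate 2) and from -0.273 (without EtoH replicate 2; -0.181 without VSGC12 replicate 2) to 0.287 in VSGC12. The causes were not tested. Over all genes 7873 were called for the mean, from 3752 (array medians) to 8987 (without Dex replicate 1) in fits over genes, with 4869 at no filter and 4600 and 4630 without EtoH replicate 1 and replicate 2; with 1 row a probe 9944 of 23388 probes were called. A percentile over distinct probes was chosen after seeing the data and moved no Schlafen call. Where an arm keeps 1 array, that array is assumed to vary like the other groups.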

Other observations

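Further Schlafen entries of the array lie outside the 7 genes. The pseudogene Slfn10-ps read 8.36 and 5.41 in Dex, 6.96 and 6.61 in FF, 8.47 and 8.09 in VSG22 and 6.57 and 6.00 in VSGC12, against 9.49 and 9.04 in EtoH. All 8 glucocorticoid arrays were below both EtoH arrays, at -0.41 ± 0.15 for the mean of the 4 (adjusted p = 0.0628). Slfn14, Slfnl1 and the antisense entry Slfn5os, the last chosen after its values were seen, were not well above background on any of the 10 arrays.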
